A study of Mus musculus with 6 samples.

Results

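The genes described here drive cells into mitosis, build the spindle and condense the chromosomes, and bring mitosis to its end. They were found in the deposited gene table by symbol, and all 41 were present among 24067 genes. By role they were read as 20 genes of mitotic entry, 15 of the spindle and chromosomes and 6 of mitotic exit or its control. The tissue was the submandibular gland of embryonic day 13 ICR mice, in 3 control libraries and 3 blebbistatin libraries. Blebbistatin is a small molecule that inhibits the myosin II motor. Treatment is the only difference between the groups that the labels give, while its dose, duration and vehicle, and how many glands were pooled, are not given in these sources. The series title names epithelial buds and the tissue label the gland. No label ties the libraries of a group to separate cultures, so p-values measure only the spread between libraries, which may be technical.

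Values are FPKM, fragments scaled by transcript length and by library size, so levels can be roughly compared between genes. A trend with transcript length remained between control replicate 1 and the other controls, as described below. Estimated depth was 29.2 to 35.7 M (mega) fragments per library, and a member rested on an estimated 413 (Cdc25c) to 13265 (Mki67) fragments in a library. The summed FPKM of 8 epithelial markers was 1490.5 to 1801 in controls and 1350 to 1643 in treated libraries. For 8 mesenchymal markers this sum was 280.5 to 357 and 337 to 374. The 5 endothelial, 5 neuronal, 4 glial and 4 leukocyte markers each summed to at most 2.63 FPKM in any library. The 4 erythroid markers summed to 189, 1.80 and 141 FPKM in control replicates 1 to 3 and to 1.033, 3.90 and 46.7 in blebbistatin replicates 1 to 3. No marker was at 0 in all 6 libraries, and the part of other cell types in the values below was not tested.

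Entry into mitosis depends on Cdk1, a kinase that works with cyclins A and B and with the small Cks subunits. Wee1 and Pkmyt1 hold Cdk1 inactive by phosphorylation, the Cdc25 phosphatases remove that phosphate, and the kinases Plk1, Aurka and Mastl act beside it. Exit follows when the anaphase-promoting complex (APC/C), a ubiquitin ligase, marks securin and the B cyclins for destruction. In cycling cells most of these genes are transcribed mainly in G2 and M phase, under control of MuvB with Mybl2 and Foxm1, through a promoter element called CHR and through CCAAT boxes bound by NF-Y. Growing end buds of the embryonic gland hold many dividing epithelial cells, so that these RNAs serve as a readout of the cycling fraction and of cell cycle position.

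The promoters of 4 members are shown because these genes had the smallest p-values among members whose promoter held both elements. Each run is the 200 bases before the transcript start, 5′ to 3′ on the gene's strand, from RefSeq on GRCm38.p6, with CHR and CCAAT letters of either strand in capitals. Positions are chr10:69352913-69353112 for Cdk1 (minus strand), chr9:70421555-70421754 for Ccnb2 (minus), chr17:24251410-24251609 for Ccnf (minus) and chr2:164769729-164769928 for Ube2c (plus).
Cdk1: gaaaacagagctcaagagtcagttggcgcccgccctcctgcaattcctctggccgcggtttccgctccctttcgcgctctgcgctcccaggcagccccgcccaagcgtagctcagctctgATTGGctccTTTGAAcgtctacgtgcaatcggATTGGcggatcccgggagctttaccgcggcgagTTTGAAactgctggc
Ccnb2: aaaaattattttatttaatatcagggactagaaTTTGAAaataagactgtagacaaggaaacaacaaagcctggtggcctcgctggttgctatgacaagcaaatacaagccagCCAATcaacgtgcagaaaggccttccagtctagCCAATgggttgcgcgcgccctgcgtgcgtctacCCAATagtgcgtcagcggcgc
Ccnf: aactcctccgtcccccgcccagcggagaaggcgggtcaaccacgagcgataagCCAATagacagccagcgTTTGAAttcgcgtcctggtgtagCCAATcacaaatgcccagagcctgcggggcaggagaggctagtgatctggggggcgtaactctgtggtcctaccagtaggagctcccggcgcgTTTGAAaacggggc
Ube2c: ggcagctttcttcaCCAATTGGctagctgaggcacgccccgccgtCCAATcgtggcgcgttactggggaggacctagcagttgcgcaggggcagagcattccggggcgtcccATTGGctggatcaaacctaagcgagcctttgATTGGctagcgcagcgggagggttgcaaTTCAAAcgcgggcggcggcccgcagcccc

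In these 200 bases Cdk1 and Ccnf each had 2 CHR and 2 CCAAT matches, Ccnb2 had 1 and 3, and Ube2c had 1 and 5, of which 2 overlap on opposite strands. The CHR nearest the start began 15 bases before it in Cdk1, 14 in Ccnf and 29 in Ube2c, whereas the only one in Ccnb2 began 167 bases before it. The search took CHR as TTTGAA or TTCGAA and the CCAAT box as CCAAT, on both strands, in the 250 bases before the start. Promoters of 32 of the 41 members were matched by symbol. A CHR stood in 15 of them (46.9%) against 17.1% of all 32851 promoters, a CCAAT box in 26 (81.2%) against 33.8%, and both in 14 (43.8%) against 6.02%. Those 32851 promoters were not limited to the genes tested here. By role, a CHR stood in 4 of 13 entry, 7 of 13 spindle and chromosome and 4 of 6 exit promoters. A match of letters is a description and not a shown binding site.

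All 41 genes had a higher mean in the treated libraries, yet no single gene passed the test across the transcriptome. With limma, 0 of 41 passed an adjusted p of 0.05, where 0.078% of the 11540 tested genes did, and the smallest adjusted p among members was 0.158 (Pbk). At an unadjusted p under 0.05 there were 28 members, all higher, beside 4.46% of tested genes that were higher at that level. In 31 members every treated library lay above every control, beside 7.48% of tested genes. A higher mean by itself was found in 55.2% of tested genes. In RNA of a tissue rather than of single cells, a different number of dividing cells and a different amount of these RNAs per cell cannot be told apart.

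The size of the difference was modest and similar in the 3 roles. The log2 fold change, blebbistatin minus control on the log2(FPKM + 1) scale, had a median of 0.34 over the entry genes, 0.40 over the spindle and chromosome genes and 0.29 over the exit genes, beside 0.01 over all tested genes. The whole range was 0.06 (Wee1) to 0.48 (Ccna2). Of the entry genes 16 of 20 did not overlap between the groups and 14 had an unadjusted p under 0.05, of the spindle and chromosome genes 10 of 15 and 10, and of the exit genes 5 of 6 and 4. Over the 820 pairs of members, the median Pearson correlation of their values across the 6 libraries was 0.87. This is a description of points that share 6 libraries and their scaling. Ube2s (median 0.37 with the other members), Wee1 (0.60) and Cdc25a (0.60) were least like the rest.

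Control replicate 1 was the lowest of the 6 libraries in 37 of 41 members, against 23.0% of tested genes. The median deviation from the gene mean was -0.43 there, -0.01 and -0.12 in control replicates 2 and 3, and 0.18, 0.14 and 0.19 in the treated libraries. Without control replicate 1 the members still had 40 of 41 means higher (56.8% of tested genes did) and 31 without overlap, beside 17.2% of tested genes without overlap and higher. Overlap turns on the highest control, so this count moves little when the lowest control is left out. The medians then became 0.28 for entry, 0.20 for spindle and chromosome genes and 0.27 for exit, and 22 members had an unadjusted p under 0.05, beside 6.05% of tested genes that were higher at that level. Leaving out this library therefore lowered the median of the spindle and chromosome genes by more than that of the other roles, a difference that was not tested.

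**Figure D1:**
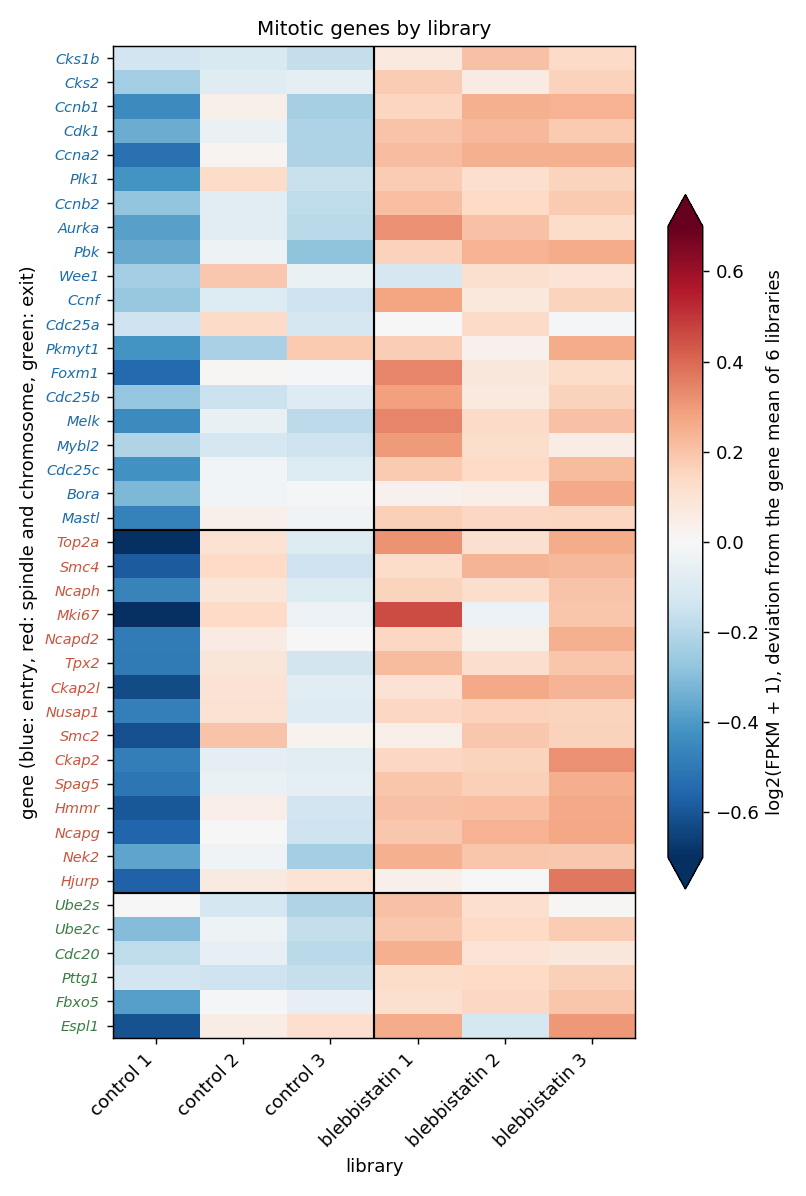
Each row is 1 of the 41 genes and each column 1 library, with colour for the deviation of log2(FPKM + 1) from the gene's mean over 6 libraries (rows by role and falling mean level). The column of control replicate 1 is blue in nearly every row, lowest of the 6 in 37 genes, and the 3 treated columns are mostly red.

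The kinase at the centre of entry and its cyclins had higher values in every treated library than in any control. Cdk1 (Entrez 12534, mm10 chr10:69336635-69352912) stood at 37.9, 47.0 and 41.6 FPKM in control replicates 1 to 3 and at 56.0, 57.0 and 55.2 in blebbistatin replicates 1 to 3. The treated libraries lay within a narrow band above the highest control, with a log2 fold change of 0.41 ± 0.10 (SE, n = 3 per group, limma adjusted p = 0.172). Ccnb2, cyclin B2 (Entrez 12442, chr9:70407689-70421554), was at 29.6, 34.0 and 31.8 FPKM and then 41.9, 39.8 and 41.1. The log2 fold change was 0.36 ± 0.09 (limma adjusted p = 0.173). Ccnb1, cyclin B1, went from a mean of 44.6 ± 7.77 (SD, n = 3) to 59.8 ± 2.32 FPKM, and Ccna2, cyclin A2, from 41.1 ± 7.80 to 56.9 ± 0.67. Both groups of values were apart, and in both genes the spread was wider among controls than among treated libraries. Ccnf, cyclin F, the F-box subunit of a ubiquitin ligase (Entrez 12449, chr17:24223232-24251409), was at 17.3, 19.6 and 18.9 FPKM in controls and 25.7, 22.2 and 23.6 in treated libraries. Its log2 fold change was 0.34 ± 0.09 (limma adjusted p = 0.224). The Cks subunits were the most abundant entry genes, Cks1b at 133 ± 2.76 and 161 ± 7.50 FPKM and Cks2 at 94.0 ± 6.18 and 113 ± 4.96. For Cks1b, control replicate 1 (133 FPKM) lay between the other controls, and its log2 fold change of 0.27 was the same without that library.

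The mitotic kinases beside Cdk1 differed in how far the groups stood apart. Aurka, the Aurora A kinase that activates Plk1 (Entrez 20878, chr2:172356190-172370570), was at 19.1, 23.7 and 21.9 FPKM in controls and at 31.6, 29.1 and 27.6 in treated libraries. The lowest treated value was above the highest control (log2 fold change 0.44 ± 0.10, limma adjusted p = 0.170). Pbk, a kinase active in mitosis (Entrez 52033, chr14:65805911-65817822), was at 18.5, 23.2 and 19.5 FPKM and then 26.8, 28.4 and 28.8. It had the smallest p of all members, with a log2 fold change of 0.44 ± 0.10 (limma adjusted p = 0.158) and of 0.38 without control replicate 1. Melk, a kinase of proliferating progenitors (Entrez 17279, chr4:44300917-44364675), was at 8.72, 11.8 and 10.7 FPKM and then 15.8, 13.5 and 14.3. The groups were apart, with a log2 fold change of 0.45 ± 0.12 (limma adjusted p = 0.202). Plk1, the Polo-like kinase, overlapped: control replicate 2 had 43.0 FPKM, above the 42.7 of blebbistatin replicate 2, and the means were 35.7 ± 6.95 and 43.6 ± 0.89. Its activator Bora was lower in level, at 9.38 ± 1.21 and 11.1 ± 1.12 FPKM. Mastl, the Greatwall kinase, which restrains the phosphatase PP2A in mitosis, was the least abundant entry gene, at 5.18 ± 1.12 and 6.56 ± 0.07 FPKM, with the treated libraries between 6.499 and 6.63.

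Of the 5 kinases and phosphatases that hold or release Cdk1, Wee1, Pkmyt1 and Cdc25a overlapped between the groups, and Cdc25b and Cdc25c did not. Wee1, the nuclear kinase that inactivates Cdk1 (Entrez 22390, chr7:110122059-110143299), was at 20.03, 27.3 and 23.0 FPKM in controls and at 21.9, 25.9 and 25.6 in treated libraries. The groups lay within one another (log2 fold change 0.06 ± 0.13, limma adjusted p = 0.991), and the value was -0.04 without control replicate 1. Pkmyt1, the membrane-bound kinase with the same target, was at 13.6, 15.6 and 21.0 FPKM and then 20.9, 18.8 and 22.2, so that control replicate 3 lay among the treated libraries. Its exons overlap those of Paqr4 on the opposite strand. Among the phosphatases Cdc25a, which also acts at the start of S phase, overlapped between the groups (20.4 ± 2.33 and 21.6 ± 1.29 FPKM). Cdc25b stood at 11.6 ± 0.79 and 15.02 ± 1.23 FPKM and Cdc25c at 9.58 ± 1.51 and 12.51 ± 0.37, both without overlap. The ratio of Cdk1 to Wee1 within a library, chosen after the values were seen, was 1.89, 1.72 and 1.81 in controls and 2.56, 2.204 and 2.16 in treated libraries. Every treated ratio lay above every control, and control replicate 1 had the highest control ratio. As Wee1 had the lowest log2 fold change of the entry genes and Cdk1 a small p, this ratio adds no separate evidence. The ratio of Cdk1 to Pkmyt1 overlapped, at 2.59 ± 0.54 and 2.73 ± 0.28, as did that of Cdc25b to Wee1, at 0.50 ± 0.06 and 0.62 ± 0.11. The ratios of Cdc25b to Cdc25a, Ccnb1 to Ccnb2, Cks1b to Cks2, Ube2c to Ube2s and Cdc20 to Ccnb1 overlapped too. That of Smc2 to Smc4 was lower in every treated library than in any control (0.71 ± 0.05 in controls and 0.65 ± 0.01 in treated libraries).

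The transcription factors of the programme had moderate levels. Foxm1, the forkhead factor of G2 and M genes, was at 11.2, 16.9 and 16.7 FPKM in controls and 21.5, 17.8 and 18.5 in treated libraries. Mybl2, the B-Myb subunit that joins MuvB, was at 9.58, 10.3 and 10.1 FPKM and then 14.1, 12.3 and 11.7. In both genes the groups did not overlap, and blebbistatin replicate 1 was the highest library. Without control replicate 1 the log2 fold change of Foxm1 went from 0.36 to 0.18 and that of Mybl2 from 0.32 to 0.29, with limma adjusted p of 0.599 and 0.373 in that fit. Exons of Foxm1 and of Ccna2 overlap those of another annotated gene (4933413G19Rik on the same strand, Exosc9 on the opposite strand), and fragments there may be shared.

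**Figure D2:**
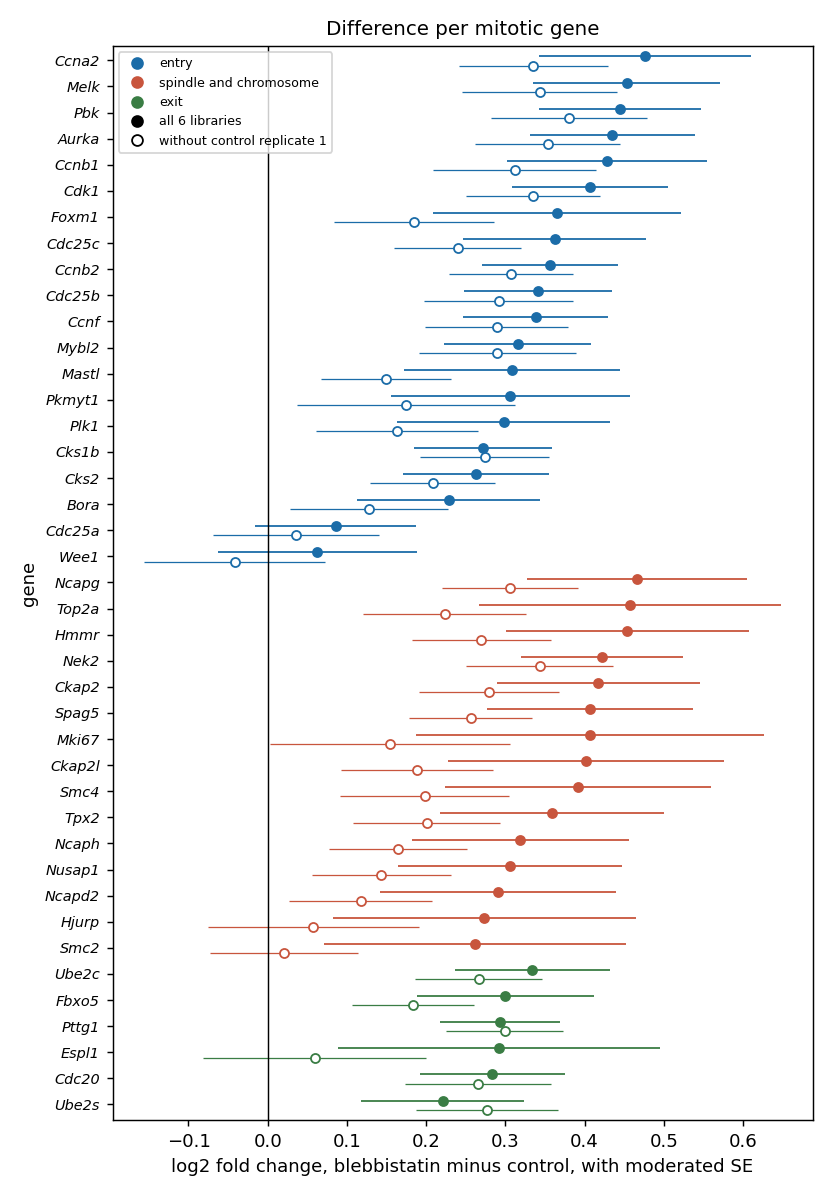
For each gene the filled point gives the log2 fold change (blebbistatin minus control) over all 6 libraries and the open point that without control replicate 1, with bars for the moderated SE. Filled points lie between 0.06 and 0.48. The open points of Wee1 (-0.04), Smc2 (0.02), Cdc25a (0.04), Hjurp (0.06) and Espl1 (0.06) are nearest to 0, each less than its SE away.

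Genes of spindle assembly had higher values in the treated libraries, and control replicate 1 was the lowest library in all 15 genes of the spindle and chromosomes. Nek2, a kinase that separates the centrosomes (Entrez 18005, chr1:191821473-191833049), was at 9.96, 12.9 and 10.99 FPKM in controls and at 15.8, 15.2 and 15.1 in treated libraries. The groups were apart, with a log2 fold change of 0.42 ± 0.10 (limma adjusted p = 0.175) and of 0.34 without control replicate 1. Ckap2, a protein that promotes microtubule growth at spindle poles (Entrez 80986, chr8:22168152-22185819), was at 15.6, 21.1 and 21.1 FPKM and then 24.7, 24.9 and 28.0 (log2 fold change 0.42 ± 0.13, limma adjusted p = 0.283). Spag5, or astrin (Entrez 54141, chr11:78301591-78322454), was at 11.2, 15.7 and 15.6 FPKM and then 18.7, 18.4 and 19.6 (0.41 ± 0.13, limma adjusted p = 0.306). Hmmr, a spindle protein that is also known as a hyaluronan receptor (Entrez 15366, chr11:40701388-40733437), was at 9.92, 16.0 and 14.1 FPKM and then 18.0, 18.1 and 18.9 (0.45 ± 0.15, limma adjusted p = 0.340). In each of these 3 genes the difference between control replicate 1 and the other controls was larger than the gap from the highest control to the lowest treated library. Tpx2, the activator that brings Aurka to the spindle, was at 26.3 ± 5.37 and 33.5 ± 1.16 FPKM, Nusap1 at 24.6 ± 5.09 and 30.3 ± 0.18, and Ckap2l at 25.4 ± 6.47 and 33.2 ± 2.07. All 3 were without overlap, although control replicate 2 and blebbistatin replicate 1 of Ckap2l were both at 30.8 FPKM. Exons of Nusap1 overlap those of Oip5 on the opposite strand.

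Genes that shape and pack the chromosomes had higher means in the treated libraries, and 5 of these 8 genes overlapped between the groups. Ncapg, a condensin I subunit (Entrez 54392, chr5:45669925-45700547, with exons that overlap Lcorl on the opposite strand), was at 8.89, 13.5 and 12.1 FPKM in controls and at 15.6, 16.2 and 16.5 in treated libraries. The groups were apart, with a log2 fold change of 0.47 ± 0.14 (limma adjusted p = 0.268) and of 0.31 without control replicate 1. Smc2, an ATPase core subunit of both condensins (Entrez 14211, chr4:52439221-52488365), was at 15.7, 28.3 and 25.0 FPKM and then 25.3, 28.1 and 27.6. Control replicate 2 was the highest of the 6, and the log2 fold change of 0.26 ± 0.19 (limma adjusted p = 0.848) became 0.02 without control replicate 1. Its partner Smc4 (32.1 ± 8.11 and 41.6 ± 1.77 FPKM) and the condensin I subunit Ncapd2 (29.2 ± 5.90 and 35.5 ± 2.61) overlapped as well, while Ncaph (31.1 ± 6.04 and 38.5 ± 1.07) did not. Top2a, the topoisomerase that untangles sister chromatids and the most abundant gene of this role, was at 38.7, 68.3 and 59.2 FPKM and then 79.2, 68.5 and 76.0. Its highest control and lowest treated library were 68.35 and 68.54 FPKM, so that the groups were apart by a hair. Mki67, the Ki-67 protein that coats mitotic chromosomes, was at 19.5, 35.8 and 31.6 FPKM and then 45.03, 31.5 and 37.3, with blebbistatin replicate 2 among the controls. Hjurp, the chaperone that loads the centromeric histone CENP-A, had the lowest level of all members, at 3.25 ± 1.01 and 4.07 ± 0.74 FPKM. Its exons overlap those of Mroh2a on the opposite strand and A730008H23Rik on the same strand.

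Exit genes had higher means in the treated libraries, and in 3 of the 6 control replicate 1 was not the lowest library. Pttg1, securin, which holds separase until anaphase (Entrez 30939, chr11:43420248-43426248), was at 31.7, 31.4 and 31.1 FPKM in controls and at 38.3, 38.5 and 39.3 in treated libraries. Both groups were tight and far apart for their spread (log2 fold change 0.29 ± 0.08, limma adjusted p = 0.198), and the value was 0.30 without control replicate 1. Its target Espl1, separase, was at 5.18, 8.80 and 9.25 FPKM and then 10.3, 7.67 and 10.6, with blebbistatin replicate 2 among the controls. Cdc20, the co-activator of the APC/C in early mitosis (Entrez 107995, chr4:118432901-118437343), was at 61.6, 67.0 and 61.2 FPKM and then 83.4, 74.8 and 73.8. The log2 fold change was 0.28 ± 0.09 (limma adjusted p = 0.309), and exons of Cdc20 overlap those of Elovl1 on the opposite strand. Ube2c, the enzyme that starts ubiquitin chains for the APC/C (Entrez 68612, chr2:164769929-164772902), was at 98.8, 119 and 109 FPKM and then 139, 134 and 138 (0.33 ± 0.10, limma adjusted p = 0.261). Ube2s, which lengthens those chains (Entrez 77891, chr7:4808014-4812340), had the highest level of all 41 members, at 208, 190.4 and 179.8 FPKM and then 239, 226 and 209. Here control replicate 1 was the highest control and just below blebbistatin replicate 3, and the log2 fold change went from 0.22 ± 0.10 (limma adjusted p = 0.577) to 0.28 without it. Fbxo5, or Emi1, the inhibitor that keeps the APC/C off before mitosis (Entrez 67141, chr10:5799158-5805465), was at 14.97, 19.7 and 19.0 FPKM and then 21.5, 22.0 and 22.8 (0.30 ± 0.11, limma adjusted p = 0.408). This gene was counted with the exit genes although it acts before mitosis.

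**Figure D3:**
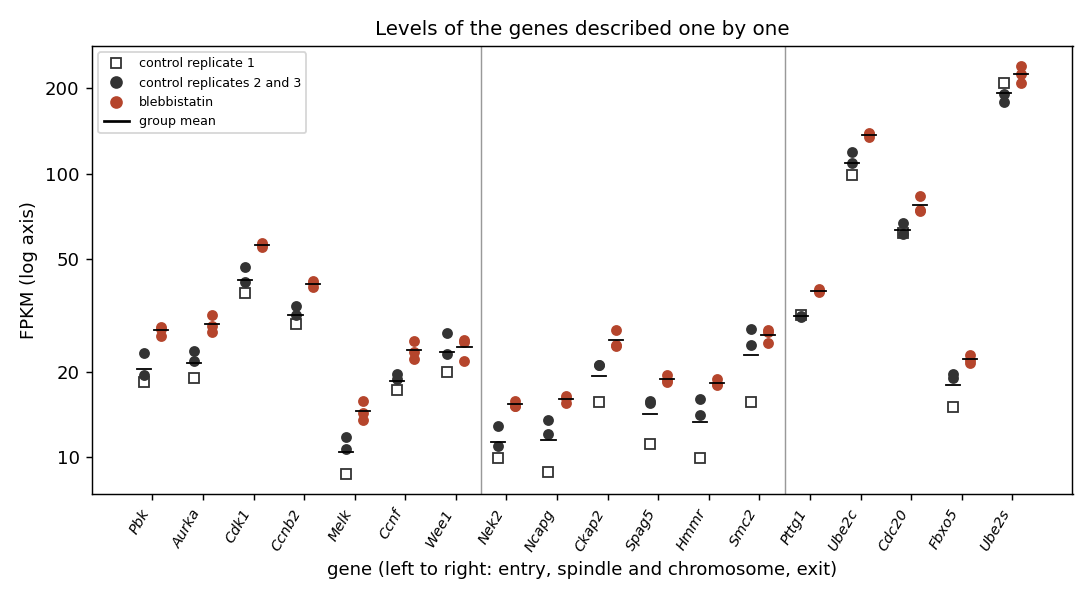
FPKM on a log axis is plotted for the 18 members of smallest p without overlap or of lowest fold change in their role, by role from left to right. Open squares mark control replicate 1, filled black points the other controls, red points blebbistatin and bars the group means. Red points lie above all black ones except in Wee1 and Smc2, which the choice required of all but Wee1, Smc2 and Ube2s. The open square is the highest control in Ube2s and Pttg1 among these genes.

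The position of control replicate 1 went with transcript length. In the 5 members with transcripts under 1500 nt (Cks1b, Cks2, Pttg1, Ube2c and Ube2s), the median difference between control replicate 1 and the mean of the other controls was 0.01 on the log2(FPKM + 1) scale. It was -0.35 in the 16 members of 1500 to 3000 nt and -0.50 in the 20 members of 3000 nt or more. Tested genes showed a slope of the same sign around higher values, with medians of 0.26, 0.09 and -0.10 in these length ranges. Pearson's r between log2 length and this difference was -0.78 over 41 members and -0.40 over 11540 genes, across genes that share the same libraries. Once the trend with length was removed from each library, control replicate 1 was the lowest library in 41 of 41 members and in 23.1% of tested genes. Its median difference from the other controls was then -0.43 over the members and -0.01 over tested genes. With the trend removed, 30 members did not overlap (8.67% of tested genes did not overlap and were higher) and 27 had an unadjusted p under 0.05 (5.22% of tested genes were higher at that level). With the trend left in, the 5 short members had the same median log2 fold change with and without control replicate 1 (0.27 and 0.27). The 20 long members went from 0.35 to 0.19. With the trend removed, short members also fell without this library: Pttg1 from 0.28 to 0.18, Ube2c from 0.32 to 0.16 and Ube2s from 0.21 to 0.18. The medians of entry, spindle and chromosome, and exit genes then went from 0.33, 0.37 and 0.28 to 0.22, 0.20 and 0.17.

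**Figure D4:**
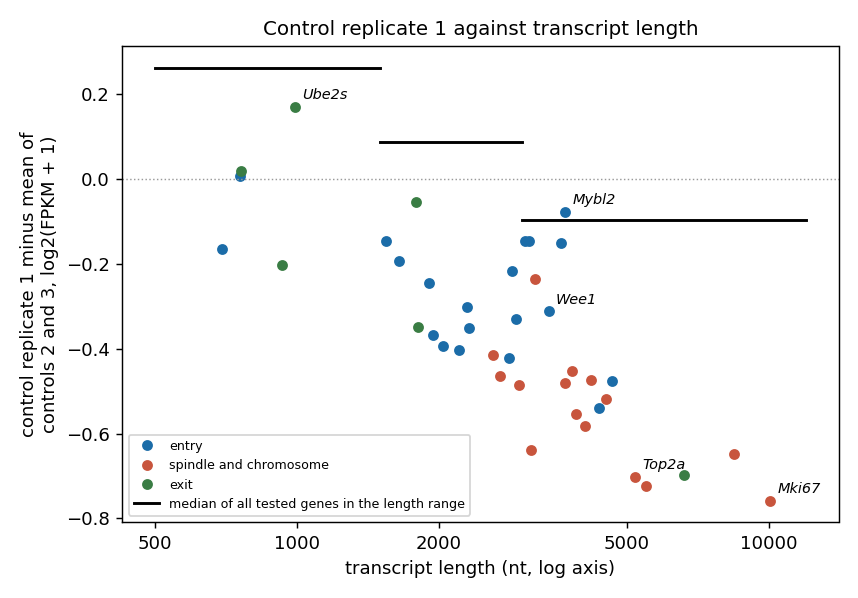
Each point is 1 of the 41 genes, with transcript length in nt on a log axis and the difference between control replicate 1 and the mean of controls 2 and 3 in log2(FPKM + 1), and black bars give the median of all tested genes under 1500 nt, from 1500 to 3000 nt and above. The points fall from Ube2s (0.17) to Mki67 (-0.76) and mostly lie below the bars.

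Isoforms gave no call of their own. Of 50 annotated transcripts of the members 49 were tested, and 0 passed an adjusted p of 0.05 with limma, where 0.00692% of 14460 tested transcripts did. At an unadjusted p under 0.05 there were 25, beside 3.8% of tested transcripts that were higher at that level, and 47 had higher means, beside 54.2%. Only 6 members had more than 1 transcript in the annotation. For Tpx2, with 5 transcripts, NM_028109 had 3.11, 3.44 and 2.95 FPKM in controls and 6.89, 4.45 and 5.55 in treated libraries, without overlap (log2 fold change 0.65 ± 0.15, limma adjusted p = 0.259). NM_001141977 of the same gene had 1.48, 2.83 and 3.00 FPKM and then 2.25, 2.33 and 1.07. The former made up 12.3% ± 2.38 (SD, n = 3) of summed Tpx2 FPKM in the control group and 16.7% ± 3.10 after treatment, and these shares overlapped. The minor Nusap1 transcript NM_001042652 made up 6.35% ± 1.31 in controls and 3.18% ± 1.40 in treated libraries, without overlap. Its own level, 0.499 to 2.13 FPKM over the 6 libraries, overlapped between the groups (log2 fold change -0.39 ± 0.22, limma adjusted p = 0.766). The main transcript NM_133851 was higher in every treated library (0.35 ± 0.15, limma adjusted p = 0.598), and a switch between the transcripts was not tested. For Aurka, 1 of 2 transcripts, NM_001291185, held 91.3% ± 0.93 and 90.5% ± 3.31.

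Other cell-cycle lists, given below, had smaller medians than the mitotic roles, a difference that was not tested. In the order below, their largest log2 fold changes were 0.66, 0.40, 0.15, 0.14 and 0.39. Their lowest were -0.30, -0.02, -0.07, -0.03 and 0.03. No list of kinetochore, kinesin or cytokinesis genes was set beside the members. Of 17 cyclins, kinases and inhibitors of G1 and S phase, 15 were higher in mean, beside 55.2% of tested genes. The median of their log2 fold changes was 0.11. With limma 0 passed the adjusted threshold, beside 0.078% of tested genes. At an unadjusted p under 0.05 there were 3, all higher, beside 4.46% of tested genes that were higher at that level. Ccnd2, cyclin D2 of G1 phase, was at 166, 156 and 135 FPKM in controls and at 258, 246 and 217 in treated libraries. The groups were far apart (log2 fold change 0.66 ± 0.12, limma adjusted p = 0.0785), and control replicate 1 was the highest control. Gmnn, geminin, the inhibitor of repeated origin licensing, was at 34.5 ± 0.95 and 43.3 ± 1.41 FPKM, and the CDK4 and CDK6 inhibitor Cdkn2c at 1.42 ± 0.22 and 2.04 ± 0.19. Cdkn1c, the inhibitor p57, was lower, at 222, 147 and 161 FPKM and then 139, 138 and 146 (log2 fold change -0.30 ± 0.15, limma adjusted p = 0.645, and -0.12 without control replicate 1).

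Factors of the E2F, DREAM and MuvB group, which time cell-cycle transcription, had 17 of 21 means higher and a median of 0.11. A higher mean was found in 55.2% of tested genes. With limma 0 of these factors passed the adjusted threshold. At an unadjusted p under 0.05 there were 5, all higher, beside 4.46% of tested genes that were higher at that level. Lin54, the MuvB subunit that binds CHR, was at 4.65 ± 1.00 and 6.30 ± 0.29 FPKM. Rbl1, or p107, was at 9.59 ± 1.67 and 12.0 ± 0.17, E2f7 at 5.27 ± 1.35 and 7.14 ± 0.57, and the MuvB subunit Lin37 at 15.9 ± 1.01 and 15.7 ± 0.08. The 16 APC/C genes had 9 higher means, beside 55.2% of tested genes, and a median of 0.02. Among them 0 had an unadjusted p under 0.05, beside 4.46% of tested genes that were higher at that level. Anapc10 was at 2.51 ± 0.12 and 2.88 ± 0.09 FPKM, Anapc5 at 140.1 ± 4.25 and 152 ± 4.74, Anapc1 at 20.6 ± 2.58 and 23.0 ± 2.16, and Anapc4 at 30.5 ± 1.19 and 28.9 ± 0.88. This list also holds the co-activator Fzr1 and the enzyme Ube2d1, with log2 fold changes of 0.03 and 0.02.

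The 15 genes of the CDK-activating kinase and of mitotic phosphatases had 12 higher means, beside 55.2% of tested genes, and a median of 0.04. At an unadjusted p under 0.05 there were 0, beside 4.46% of tested genes that were higher at that level. Cdk7, which activates Cdk1, was at 8.05 ± 0.57 and 8.88 ± 0.17 FPKM, its cyclin Ccnh at 9.25 ± 0.26 and 9.81 ± 0.80, and the PP2A subunits Ppp2r2d at 14.4 ± 0.93 and 15.9 ± 0.74 and Ppp2r1a at 164 ± 20.5 and 160.3 ± 8.46. Cohesin and condensin II genes had 14 of 14 means higher, beside 55.2% of tested genes, a median of 0.12 and 0 past the adjusted threshold. Beside 4.46% of tested genes that were higher at an unadjusted p under 0.05, this list had 3, all higher. Those 3 were Cdca5, or sororin (17.6 ± 1.81 and 22.1 ± 1.29 FPKM), Sgol1, or shugoshin (8.10 ± 1.47 and 10.8 ± 0.64), and the condensin II subunit Ncapg2 (9.45 ± 2.05 and 12.05 ± 0.53). The cohesin regulator Pds5b was at 16.7 ± 3.48 and 16.8 ± 1.36 FPKM, and its log2 fold change of 0.03 was -0.14 without control replicate 1.

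**Figure D5:**
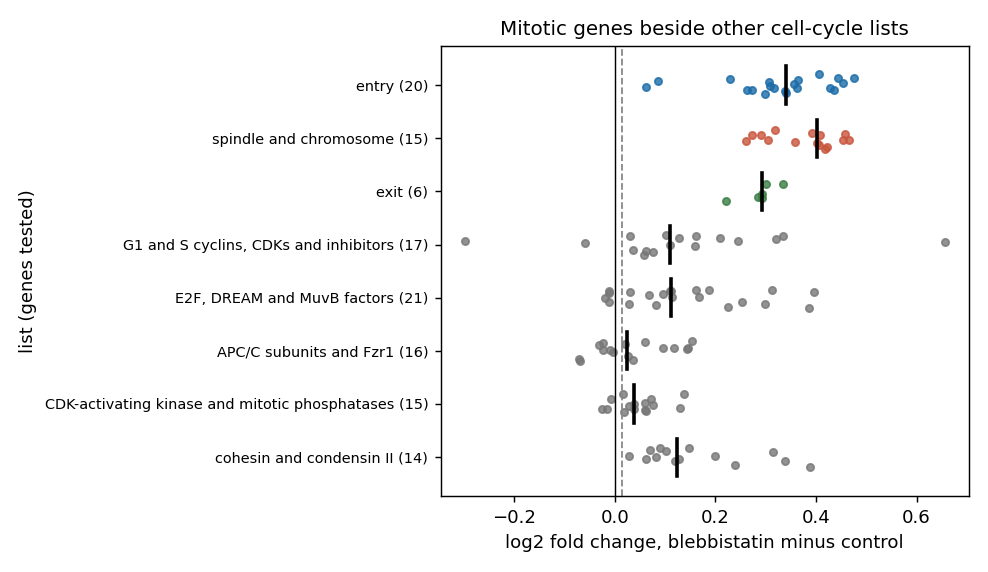
Points are log2 fold changes (blebbistatin minus control) of single genes in the 3 mitotic roles and in 5 other cell-cycle lists, black bars are medians, and the dashed line is the median of all tested genes (0.01). All points of the mitotic roles lie to the right of 0, with medians of 0.34, 0.40 and 0.29, and the other lists have medians of 0.02 to 0.12.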

How the data were processed

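RNA of 3 control and 3 blebbistatin libraries was deposited as FPKM per gene and per transcript, computed by the authors per the file headers. The submitters' processing notes name TopHat2 2.0.13, Bowtie2 2.2.3, Cufflinks 2.2.1 and mm10, without their roles. Columns BB were read as blebbistatin, and columns without a number as replicate 1. Since FPKM are no counts, limma 3.58.1 (R 4.3.3) was applied to log2(FPKM + 1) of the 11540 genes averaging at least 1 FPKM (empirical Bayes with trend, treatment as the only term, Benjamini-Hochberg over all genes, threshold 0.05), and transcripts likewise. Fold changes on this scale understate changes of low genes. Depth was estimated from values worth 1 fragment in single-transcript genes over 4000 nt. The members, lists and roles were chosen with earlier results of these data known. Given with all library values were, per role, up to 6, 5 and 4 members of smallest p without overlap and the member of lowest fold change, some others being added after their values were seen. Of each other list, the 3 genes of smallest p and the most opposite one were named. Gene positions are those of the deposited annotation, 8 members share exonic positions with another gene, and the strand setting is not given in these sources. Wapl was matched through its older symbol Wapal. The test was checked on simulated data with changes larger than those of the members and no shifts shared between genes. That check does not show how often differences of the members' size would be found. Alternatives were another pseudocount, filter, scaling, weights, a replicate block and leaving out each library. Removal of the trend with transcript length was chosen after seeing the data.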

Additional observations from a re-analysis of the deposited data

How the results depend on the processing

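Transcripts were not refitted under quantile normalization, median-of-ratios rescaling, array weights or removal of the length trend. In the other alternatives the count of 0 member transcripts past the adjusted threshold was the same. The count of 0 members past that threshold was the same in every alternative run. The count of all genes past it, 9, became 1 when low genes were kept, 27 at a mean of 5 FPKM or more, 14 under quantile normalization, 2 under median-of-ratios rescaling, 57 under array weights, 19 with the length trend removed and 1 with that and without control replicate 1. Leaving out 1 library gave 1 to 13 genes: for the controls 1, 2 and 7 in replicate order, and for the treated libraries 2, 4 and 13. Members at an unadjusted p under 0.05 numbered 20 to 33 and members without overlap 27 to 36 over these alternatives, beside 28 and 31. The 33 came with a replicate block and without control replicate 2, where 925 and 590 tested genes were higher at that level, against 515. The 20 came without a treated library (388, 358 and 473 genes in replicate order). The 36 came without control replicate 2, where 1980 tested genes were higher without overlap, against 863. The 27 came under quantile normalization (942 genes). With 1 library left out, the medians of the entry, spindle and chromosome, and exit genes were 0.28 to 0.40, 0.20 to 0.49 and 0.27 to 0.35. With the length trend and control replicate 1 both removed, those of entry and exit were 0.22 and 0.17.

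A replicate block called 144 genes and 0 members. With this block, 33 members had an unadjusted limma p under 0.05, all higher, beside 925 of 11540 tested genes higher at that level. The smallest limma adjusted p among members was then 0.061. Ccnd2 passed the adjusted threshold under quantile normalization (log2 fold change 0.63), array weights (0.69) and the block (0.66). Same-numbered libraries correlated at 0.18, 0.094 and 0.25 in their deviations from the group means, and the other pairs at -0.25 to 0.080. Each library thus correlated best with its own number. As the labels give no pairing, the numbers were not taken as pairs in the main fit, and whether they are pairs was not tested.

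Some small log2 fold changes changed sign. Wee1 was -0.041 without control replicate 1 and -0.053 with the length trend removed too. Lin37 was 0.0076 under array weights and -0.046 to 0.028 with 1 library left out. Ppp2r1a was 0.042 under array weights, 0.0091 with the length trend and control replicate 1 removed, and -0.13 to 0.042 with 1 library left out. Pds5b was -0.037 under array weights, -0.0034 with the length trend removed, -0.10 with control replicate 1 removed as well, and -0.14 to 0.15 with 1 library left out. The cause was not tested.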
